A study of Mus musculus with 6 samples.

Results

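The genes described here are 9 T helper lineage regulators and cytokines: the transcription factors Tbx21, Gata3, Bcl6, Stat4 and Stat6, the cytokine receptor chain Il12rb2, and the cytokines Ifng, Il4 and Il17a. They were taken by name, and every probe set that the array annotation assigns to one of them was kept, which gave 11 of the 45037 probe sets tested and 9 of the 18193 genes named. Stat6 and Bcl6 each had 2 probe sets, called brighter and dimmer here by their mean over the arrays, and the other 7 genes had 1. Levels were measured on 6 Affymetrix mouse arrays in female NOD mice, an inbred strain that develops autoimmune diabetes spontaneously. The TSA-treated mice had received trichostatin A, an inhibitor of histone deacetylases, by subcutaneous injection of 500 µg/kg at weekly intervals from week 18 to week 24 of age, and only mice that stayed free of diabetes were used. The untreated diabetic mice had become diabetic without treatment, and the untreated non-diabetic mice had neither been treated nor become diabetic. All 3 groups were of this strain, and none of the arrays is labelled as a vehicle control for the injections. The labels give an age of 32 to 36 weeks for all 3 groups, whereas the study's methods give younger ages for the diabetic mice, so age cannot be told apart from diabetes. The study names the material as splenocytes that had not been stimulated in culture, while its array methods describe RNA taken from individual lysed spleens. This RNA was pooled from 3 to 5 mice of a group by the series' design text, and the methods give another pool size.

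Each group was therefore 1 RNA pool, labelled and hybridized in duplicate. The 2 arrays of a group share all their mice, so every SD, interval and p-value below measures the spread between labelings of a pool and not between mice. All values are levels on the log2 scale after the authors' normalization, and differences are the mean of the first-named group minus the mean of the second, so a difference of 1 is a doubling. Levels of different probe sets were not used to say which gene was expressed more, since each probe set has its own affinity. The array median serves below as a mark of low signal and is not a limit of detection.

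Naive CD4 T cells take up one of several helper fates, each tied to a transcription factor and to a set of secreted cytokines. In the Th1 path interleukin 12, acting through a receptor that contains the Il12rb2 chain, activates Stat4, and T-bet, the product of Tbx21, drives interferon gamma, the product of Ifng. In the Th2 path interleukin 4 activates Stat6, which induces Gata3, and Gata3 supports transcription of Il4. Bcl6 is a repressor that directs follicular helper T cells and is also required in germinal centre B cells, while interleukin 17A marks Th17 cells. Most of these genes are not private to helper T cells, since natural killer cells also express Tbx21 and Ifng, basophils and mast cells express Il4, and Stat6 is present in B cells and many other cells.

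Ifng and Il4 are the cytokine genes of the Th1 and Th2 paths above, so 1 promoter window of each is shown. Binding of a factor to these windows was not measured. Each window holds 250 bases before and 50 from the start of the gene in the RefSeq annotation of GRCm38.p6, printed 5′ to 3′ on the gene's strand, with matches to STAT and GATA sequence elements in capitals. The Ifng window lies at chr10:118440796-118441095 on the plus strand and the Il4 window at chr11:53618616-53618915 on the minus strand.
Ifng: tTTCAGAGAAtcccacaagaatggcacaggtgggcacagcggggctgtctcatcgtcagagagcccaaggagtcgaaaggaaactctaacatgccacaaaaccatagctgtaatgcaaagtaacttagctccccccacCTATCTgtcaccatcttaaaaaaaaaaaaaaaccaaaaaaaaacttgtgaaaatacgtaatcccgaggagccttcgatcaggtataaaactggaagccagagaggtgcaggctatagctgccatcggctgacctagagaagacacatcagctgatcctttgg
Il4: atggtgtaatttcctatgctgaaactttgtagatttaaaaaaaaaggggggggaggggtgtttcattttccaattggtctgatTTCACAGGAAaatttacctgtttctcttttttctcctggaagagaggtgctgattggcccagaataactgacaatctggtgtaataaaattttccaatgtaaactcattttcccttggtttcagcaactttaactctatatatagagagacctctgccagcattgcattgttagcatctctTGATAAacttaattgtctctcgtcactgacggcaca
The Ifng window holds 1 match to TTCNNNGAA, the palindrome bound by most STAT proteins, at -249 to -241 from the start base, and 1 GATA element on the opposite strand at -112 to -107. The Il4 window holds 1 match to TTCNNNNGAA, the wider spacing that Stat6 prefers, at -167 to -158, and 1 GATA element at 14 to 19. Both strands were searched, with AGATAA as the GATA element, T also allowed at its first base and G at its last, and TCACACC as the T-box element that T-bet recognizes, which neither window holds. Of 32851 mouse promoter windows of the same length, 8.3% hold TTCNNNGAA, 6.95% TTCNNNNGAA, 29.8% a GATA element and 3.98% the T-box element, so these letters are common and a match is a description of the sequence alone.

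None of the 11 probe sets passed the test in any of the 3 comparisons. limma, with Benjamini-Hochberg adjustment over all probe sets and a threshold of 0.05, called 0 of 11 between TSA-treated and untreated non-diabetic mice, where it called 0.0688% of all probe sets, 0 of 11 when diabetic mice were set against non-diabetic mice, where it called 0.0888%, and 0 of 11 between TSA-treated and diabetic mice, where it called 0.0266%. Before adjustment, 1 member probe set in the first comparison (Stat6), 0 in the second and 1 in the third (Tbx21) had a p under 0.05, against 14.7%, 6.27% and 4.27% of all probe sets. The local pooled error test, which the study's methods name and which estimates the spread from probe sets of like level, also called 0 of 11 in each comparison, against 3.59%, 1.31% and 0.129% of all probe sets. With shares this low over the whole array, a count of 0 among 11 does not set these genes apart. The smallest difference that limma called anywhere was 1.71, 2.34 and 2.09 in the 3 comparisons, whereas the widest member difference was -1.31, and the 95% intervals of the member differences reached 0.38 to 1.02 to either side.

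**Figure D1:**
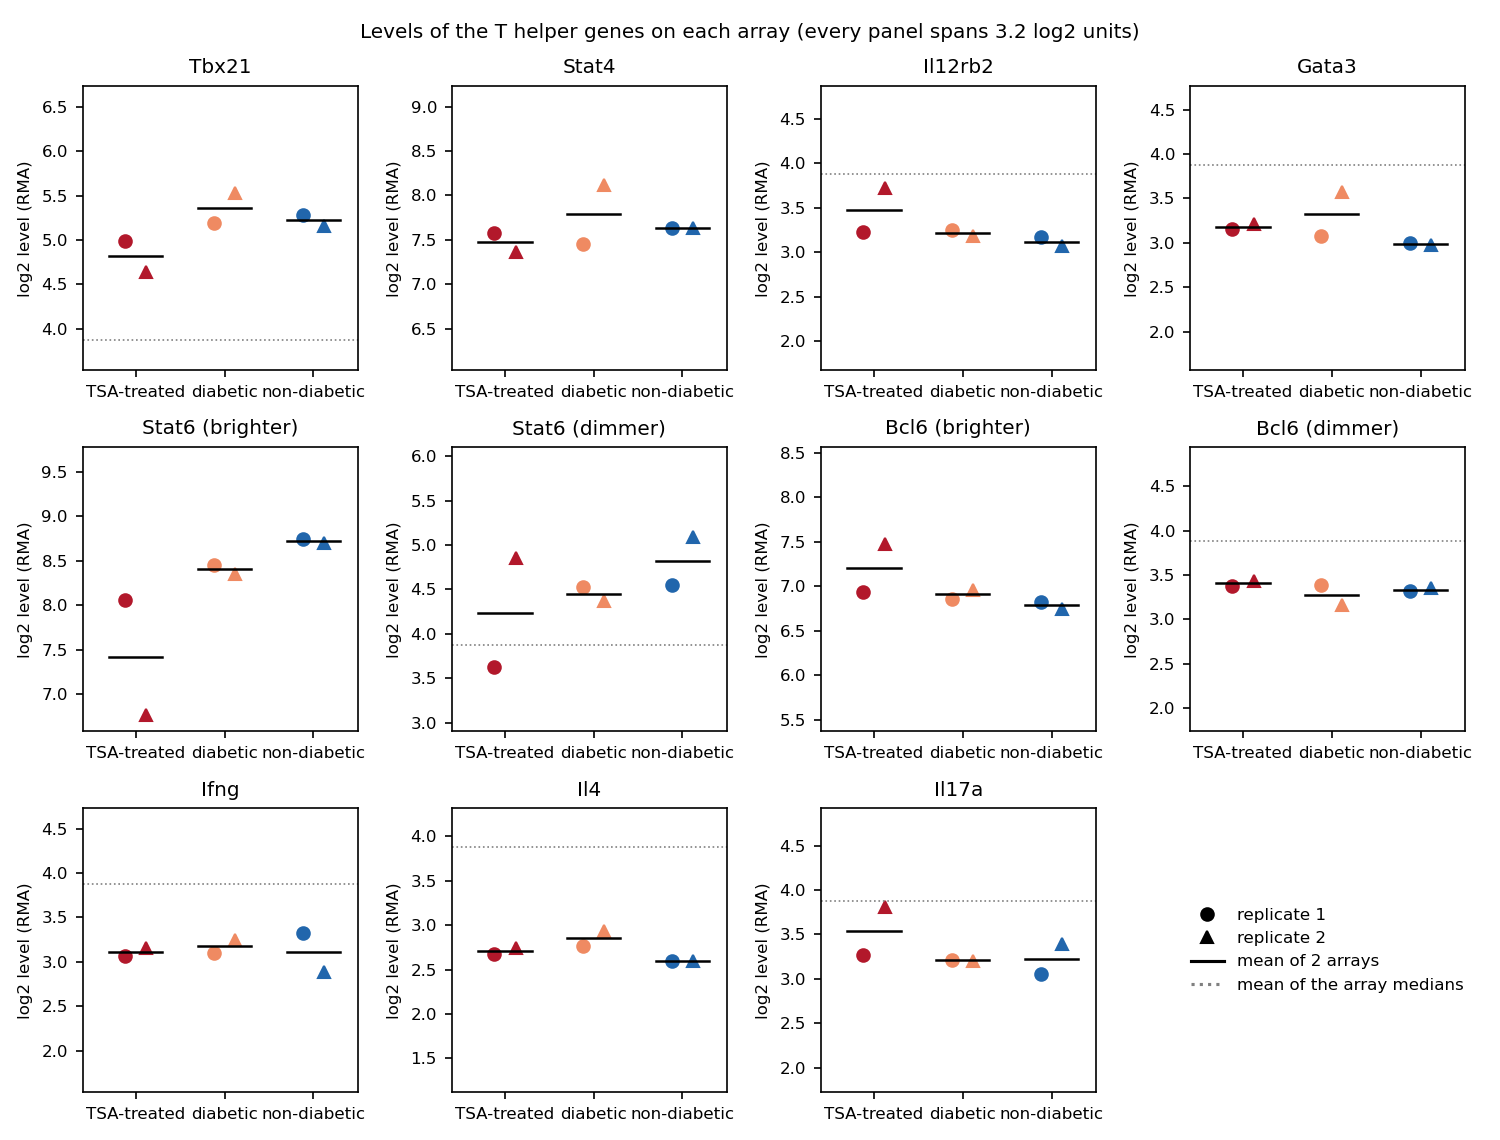
Log2 level of each of the 11 probe sets on the 6 arrays, with TSA-treated, untreated diabetic and untreated non-diabetic mice from left to right, circles for replicate 1, triangles for replicate 2, a bar for the mean of 2 arrays and a dotted line for the mean of the array medians. Ifng, Il4, Il17a, Il12rb2, Gata3 and 1 Bcl6 probe set lie under the dotted line on every array, and the widest gaps between duplicates are those of Stat6 in TSA-treated mice.

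The Th1 regulators lay above the array medians, apart from the receptor chain. Tbx21 had levels of 4.99 and 4.64 on the TSA-treated arrays, 5.19 and 5.53 on the untreated diabetic arrays, and 5.29 and 5.16 on the untreated non-diabetic arrays. Both TSA-treated arrays were below the other 4 arrays, while the diabetic and non-diabetic arrays overlapped. The TSA-treated mean of 4.81 ± 0.24 and the diabetic mean of 5.36 ± 0.24 (SD, n = 2 arrays each) differed by -0.54, with a 95% interval of -1.05 to -0.04 and an adjusted limma p of 0.902. Between TSA-treated and non-diabetic mice, at a mean of 5.22 ± 0.09 (SD, n = 2), the difference was -0.41, with an interval of -0.92 to 0.10 and an adjusted limma p of 0.436, and it was -0.24 without replicate 2 of the TSA-treated pool. Between diabetic and non-diabetic mice it was 0.14, with an interval of -0.37 to 0.64. The order of means was therefore diabetic, non-diabetic and TSA-treated, and no neighbouring pair in it differed past the threshold.

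Stat4, which carries the signal of interleukin 12 to the nucleus, had levels of 7.58 and 7.37 in TSA-treated, 7.45 and 8.12 in diabetic, and 7.64 and 7.63 in non-diabetic mice. The duplicates of the diabetic pool were 0.67 apart, and this gap exceeded every difference between groups. The differences were -0.16 (95% interval -0.78 to 0.46) for TSA-treated against non-diabetic mice, 0.15 (-0.47 to 0.77) for diabetic against non-diabetic mice and -0.31 (-0.93 to 0.30) for TSA-treated against diabetic mice. Il12rb2, the inducible chain of the interleukin 12 receptor, had levels of 3.23 and 3.72 in TSA-treated, 3.25 and 3.19 in diabetic, and 3.17 and 3.07 in non-diabetic mice. Its 6 values all lay under the medians of their arrays, which ran from 3.79 to 3.95. The TSA-treated arrays were above the non-diabetic arrays by 0.35 in the mean, with an interval of -0.16 to 0.87 and an adjusted limma p of 0.507, and overlapped the diabetic arrays. Without replicate 2 of the TSA-treated pool this difference was 0.11, and without replicate 1 it was 0.60.

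The regulators of the Th2 path differed in brightness and in direction. Gata3 had levels of 3.15 and 3.21 in TSA-treated, 3.08 and 3.58 in diabetic, and 3.00 and 2.97 in non-diabetic mice, all under the array medians. The non-diabetic arrays were the lowest of the 6, by differences of 0.20 from TSA-treated mice (interval -0.32 to 0.71) and 0.34 from diabetic mice (interval -0.17 to 0.85). The duplicates of the diabetic pool were 0.50 apart, further than any 2 group means. The diabetic mean rested on replicate 2, without which the difference of TSA-treated from diabetic mice, -0.14 with all arrays, was 0.11.

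Stat6 had the widest differences among the 9 genes, and its 2 probe sets did not show them alike. On the brighter probe set the levels were 8.06 and 6.77 in TSA-treated, 8.45 and 8.36 in diabetic, and 8.74 and 8.71 in non-diabetic mice. The 3 groups did not overlap, in the order non-diabetic, diabetic, TSA-treated from high to low, but the TSA-treated duplicates were 1.29 apart. The difference between TSA-treated and non-diabetic mice was -1.31, with a 95% interval of -2.30 to -0.31 and an adjusted limma p of 0.237. Between TSA-treated and diabetic mice it was -0.99, with an interval of -1.98 to 0.01 and an adjusted limma p of 0.902, and between diabetic and non-diabetic mice -0.32, with an interval of -1.31 to 0.67.

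Replicate 2 of the TSA-treated pool set the size of these differences. With that array alone for the TSA-treated pool, Stat6 was called at -1.95 against non-diabetic mice (limma, adjusted p = 0.0184) and at -1.63 against diabetic mice (limma, adjusted p = 0.0274), in fits that called 4.54% and 2.32% of all probe sets. With replicate 1 alone the same differences were -0.66 (limma, adjusted p = 0.271) and -0.34 (limma, adjusted p = 1). The dimmer Stat6 probe set had levels of 3.63 and 4.85 in TSA-treated, 4.52 and 4.37 in diabetic, and 4.55 and 5.09 in non-diabetic mice. Its TSA-treated duplicates were 1.22 apart and ran the other way, with replicate 2 the higher, and they spanned both diabetic arrays. Its differences were -0.58 (interval -1.61 to 0.44), -0.38 (-1.40 to 0.64) and -0.21 (-1.23 to 0.82) in the order of the comparisons given above.

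B cell markers and the gap between the 3′ end and the 5′ end of beta-actin moved with the brighter Stat6 probe set. The summed linear level of the 9 B cell markers measured was 5832 and 2666 on the TSA-treated arrays, 8612 and 8584 on the diabetic arrays, and 9662 and 9699 on the non-diabetic arrays. Without overlap, 9 of the 9 markers were lower in TSA-treated than in non-diabetic mice, against 21.5% of all probe sets. Their median difference was -1.26. limma called 0 of these 9, all 9 had a p under 0.05 before adjustment, and the local pooled error test called 3. The shares of all probe sets were 0.0688%, 14.7% and 3.59%. The log2 gap between the beta-actin control probe sets near the 3′ end and the 5′ end is a quality measure of RNA and labelling. This gap was 3.45 and 5.61 in TSA-treated, 2.42 and 3.32 in diabetic, and 2.35 and 2.05 in non-diabetic mice. The TSA-treated duplicates share 1 RNA pool. Their differences in this gap, in the B cell sum and in Stat6 are therefore between labelings or arrays. Both measures were most extreme on replicate 2 of the TSA-treated pool, the array on which Stat6 was lowest, and their part in the result was not tested. Between pools of RNA from a whole cell mixture, fewer cells of a type and less RNA per cell cannot be told apart.

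**Figure D2:**
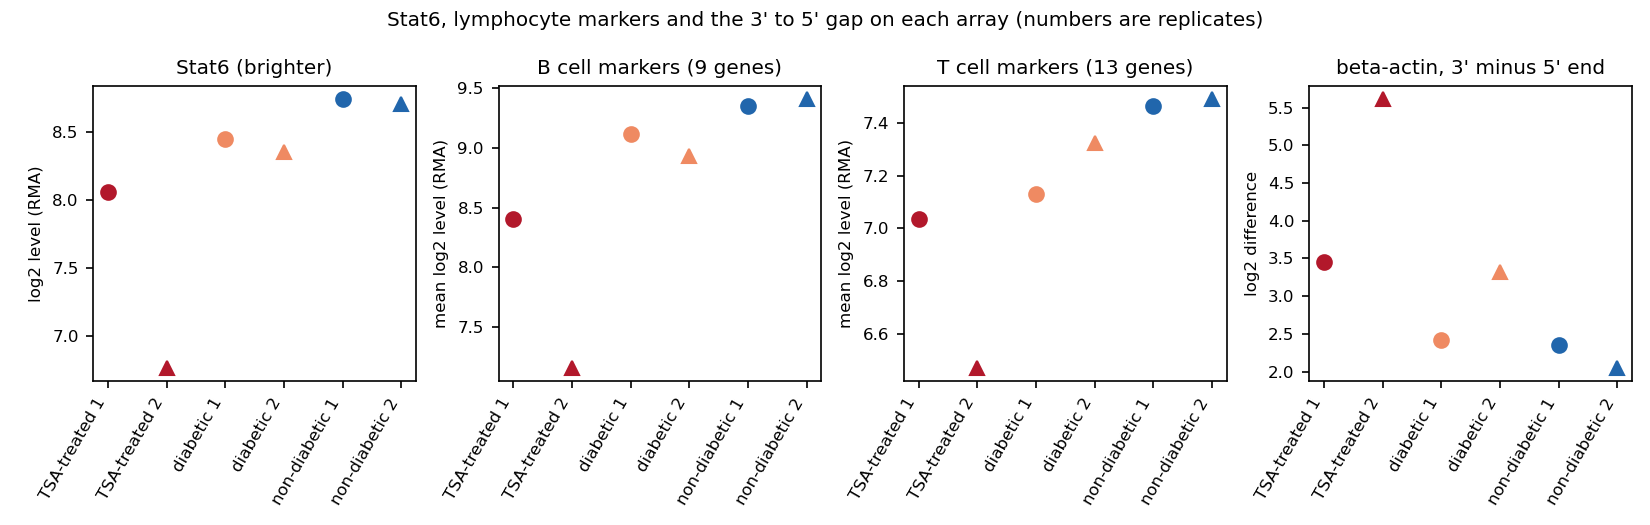
Level of the brighter Stat6 probe set, mean log2 level of the 9 B cell and 13 T cell markers and the log2 gap between the 3′ end and the 5′ end of beta-actin on the 6 arrays, TSA-treated at left. Replicate 2 of the TSA-treated pool is lowest in the first 3 panels and highest in the last, at 5.61.

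Bcl6 lay above the array medians on 1 of its 2 probe sets. On the brighter one the levels were 6.93 and 7.48 in TSA-treated, 6.85 and 6.96 in diabetic, and 6.83 and 6.75 in non-diabetic mice. Both TSA-treated arrays lay above both non-diabetic arrays, with a difference of 0.42 (95% interval -0.12 to 0.96, limma, adjusted p = 0.453), while the TSA-treated duplicates were further apart than that, and without replicate 2 of that pool the difference was 0.15. On the dimmer one all 6 levels were between 3.17 and 3.43, under the array medians, and the differences were 0.07, -0.06 and 0.13 in the order of the comparisons given above. The 5 germinal centre B cell markers measured, which mark another cell that depends on Bcl6, had summed linear levels of 230 and 276 in TSA-treated, 220 and 286 in diabetic, and 205 and 193 in non-diabetic mice. Their part in the Bcl6 levels was not tested.

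The 3 cytokine genes were under the array median on every array, where 42.7% of all probe sets also lay on all 6. Ifng, the Th1 effector cytokine, had levels of 3.06 and 3.15 in TSA-treated, 3.10 and 3.25 in diabetic, and 3.32 and 2.89 in non-diabetic mice. The non-diabetic duplicates spanned the other 4 arrays, and no pair of groups was separated. The difference of TSA-treated from non-diabetic mice was 0.00 (95% interval -0.49 to 0.49), that of diabetic from non-diabetic mice 0.07 (-0.42 to 0.56) and that of TSA-treated from diabetic mice -0.07 (-0.56 to 0.42). These intervals measure the spread between labelings and set no bound on a difference between mice.

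Il4, the Th2 cytokine, had levels of 2.67 and 2.74 in TSA-treated, 2.77 and 2.93 in diabetic, and 2.60 and 2.60 in non-diabetic mice. The 3 groups did not overlap, in the order diabetic, TSA-treated, non-diabetic from high to low, at levels well under the array medians. The differences were 0.11 (95% interval -0.27 to 0.49), 0.25 (-0.13 to 0.64) and -0.14 (-0.53 to 0.24), with adjusted limma p-values of 0.802, 0.883 and 0.917. Il17a, the Th17 cytokine, had levels of 3.26 and 3.80 in TSA-treated, 3.21 and 3.21 in diabetic, and 3.05 and 3.40 in non-diabetic mice. Both TSA-treated arrays were above both diabetic arrays, with a difference of 0.32 (interval -0.26 to 0.91, limma, adjusted p = 0.902), and without replicate 2 of the TSA-treated pool it was 0.054. The other 2 Il17a differences were 0.31 (-0.27 to 0.89) for TSA-treated and -0.01 (-0.60 to 0.57) for diabetic against non-diabetic mice, with overlapping arrays, and the first of them was 0.041 without that array.

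**Figure D3:**
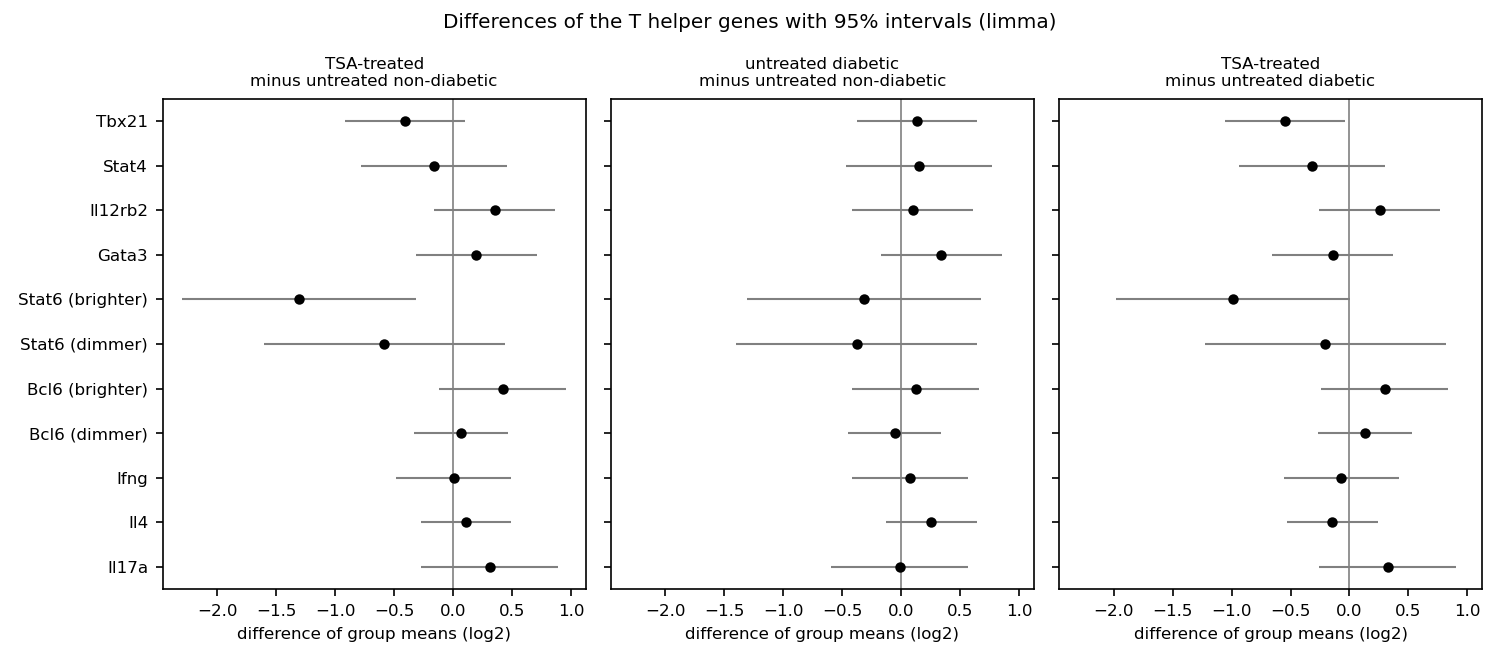
Difference of group means on the log2 scale for the 11 probe sets in the 3 comparisons, with 95% intervals from limma. The interval leaves out 0 for the brighter Stat6 probe set at -1.31 in the left panel and for Tbx21 at -0.54 in the right panel, and neither passed the adjustment over all probe sets.

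Set apart by role, the regulators and the cytokines each had medians near those of all probe sets. The 8 regulator probe sets had median differences of -0.05 for TSA-treated against non-diabetic, 0.11 for diabetic against non-diabetic and -0.17 for TSA-treated against diabetic mice, and the 3 cytokine probe sets had medians of 0.11, 0.07 and -0.07. Over all probe sets the medians were 0.05, 0.01 and 0.02. Arrays of TSA-treated and non-diabetic mice did not overlap for 8 of the 11 probe sets, 5 higher and 3 lower, against 47.8% of all probe sets, 26.3% higher and 21.5% lower. Arrays of diabetic and non-diabetic mice did not overlap for 6, 4 higher and 2 lower, against 41.0%, 21.6% higher and 19.4% lower, and those of TSA-treated and diabetic mice for 4, 1 higher and 3 lower, against 27.5%, 16.2% higher and 11.4% lower. The 3 comparisons share arrays, so their counts are not independent of each other.

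The gaps between duplicates set the scale for such orders. Over all probe sets, replicate 1 of the TSA-treated pool and replicate 2 of the diabetic pool correlated more with each other (r = 0.990) than with their own duplicates (0.966 and 0.973), and replicate 1 of the diabetic pool correlated more with replicate 1 of the non-diabetic pool (0.987) than with its duplicate. The non-diabetic arrays were closest to each other, at 0.993, and replicate 2 of the TSA-treated pool to its own duplicate. For 8 of the 11 probe sets the widest gap between 2 labelings of a pool exceeded the widest difference between group means, and only Tbx21, Il4 and the brighter Stat6 probe set were the other way round. Over all probe sets the group difference was the wider one for 29.2%. The widest gap fell in the TSA-treated pool for 6 probe sets, in the diabetic pool for 4 and in the non-diabetic pool for 1, which was Ifng. The median gap of the members was 0.34 in TSA-treated, 0.16 in diabetic and 0.08 in non-diabetic mice, and that of all probe sets 0.29, 0.24 and 0.14.

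Summed T cell markers were lowest on the TSA-treated arrays and highest on the non-diabetic arrays. The 13 T cell markers measured, of 15 listed, had summed linear levels of 2413 and 1863 in TSA-treated, 2595 and 2911 in diabetic, and 3355 and 3345 in non-diabetic mice. Of these, 12 were lower in TSA-treated than in non-diabetic mice without overlap, against 21.5% of all probe sets, with a median difference of -0.72. limma called 0, 8 had a p under 0.05 before adjustment, and the local pooled error test called 0. The shares of all probe sets were 0.0688%, 14.7% and 3.59%. Cd3e, a chain of the T cell receptor complex, had levels of 8.88 and 8.95 in TSA-treated, 9.10 and 8.88 in diabetic, and 9.57 and 9.38 in non-diabetic mice. Cd4, the helper T cell coreceptor, had levels of 6.01 and 6.14 in TSA-treated, 7.13 and 6.57 in diabetic, and 7.31 and 7.28 in non-diabetic mice. Markers of T cells were thus measured in all 3 pools, and the part of these levels in the member values was not tested.

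Markers of other cells that can express members varied in brightness. The 8 natural killer cell markers measured had summed linear levels of 546 and 566 in TSA-treated, 693 and 963 in diabetic, and 521 and 501 in non-diabetic mice. Their sum was highest on the diabetic array where Tbx21 was also highest. On the TSA-treated arrays, where Tbx21 was lowest, the sum was above that on the non-diabetic arrays. By mean log2 level the 8 markers were at 4.96 and 4.81 in TSA-treated and 4.82 and 4.85 in non-diabetic mice. Ncr1, a receptor of natural killer cells, had levels of 3.78 and 3.49 in TSA-treated, 3.46 and 4.35 in diabetic, and 3.48 and 3.37 in non-diabetic mice. The 5 basophil and mast cell markers measured had sums of 48.5 and 56.4 in TSA-treated, 53.8 and 51.5 in diabetic, and 47.1 and 44.0 in non-diabetic mice, and the basophil protease Mcpt8 had levels of 3.62 and 3.80, 4.01 and 3.86, and 3.76 and 3.57 in the same order of groups. All 5 of these markers lay under the median probe set by their mean over the arrays, as did Ncr1, so these markers do not show that basophils or mast cells were present. Genes of the exocrine pancreas were higher in 2 of the pools. Their sums over 10 markers were 5022 and 4936 in TSA-treated, 27204 and 27272 in diabetic, and 329 and 325 in non-diabetic mice. The part of any of these in the member levels was not tested.

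Among the other genes of the helper T cell paths, 63 of the 72 listed were measured and 0 were called by limma in any comparison. Before adjustment, 19, 7 and 7 of the 63 had a p under 0.05 in the order of the comparisons given above, against 14.7%, 6.27% and 4.27% of all probe sets. The local pooled error test called 4, 2 and 0 of the 63, against 3.59%, 1.31% and 0.129%. The median difference of TSA-treated from non-diabetic mice was -0.19 over 14 Th1 genes, 0.10 over 11 Th2 genes, -0.41 over 10 Th17 genes, -0.11 over 8 follicular helper genes, -0.10 over 12 genes of JAK-STAT signalling and 0.05 over 8 polarizing cytokines. Each list held genes on both sides of 0. In the diabetic mice the medians lay between -0.22 for Th17 genes and 0.06 for Th2 genes, against non-diabetic mice.

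**Figure D4:**
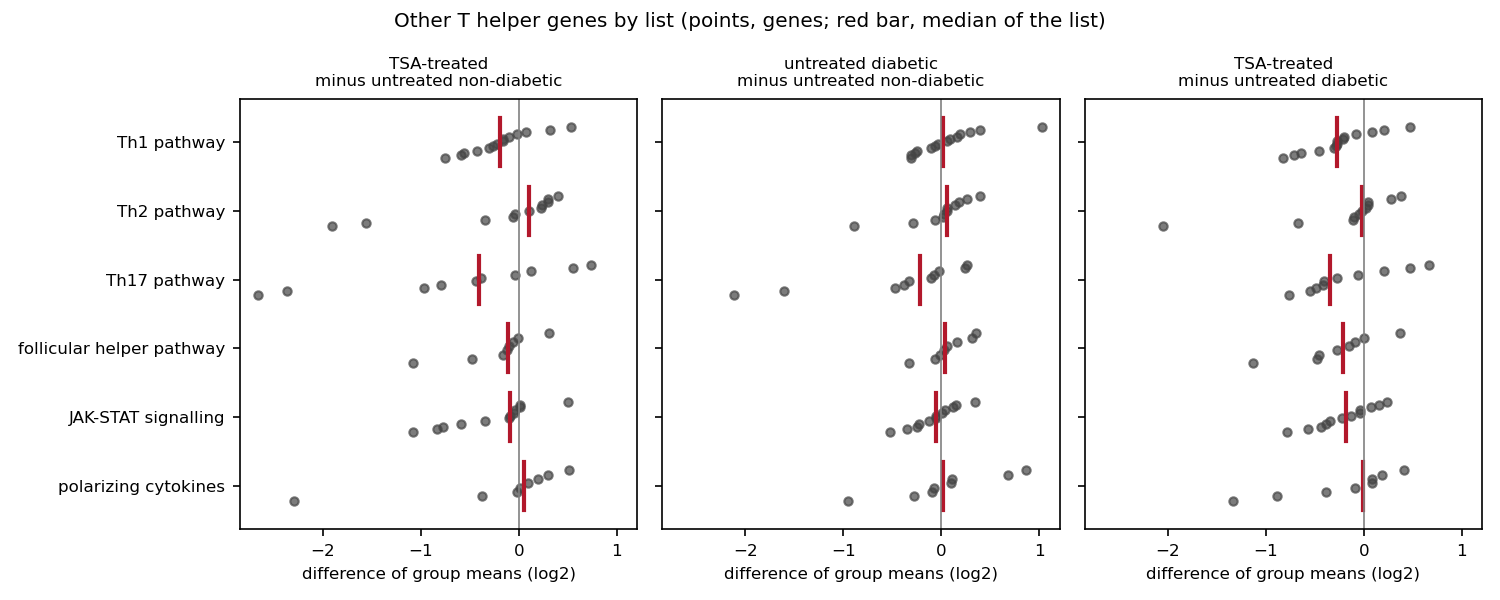
Difference of group means on the log2 scale for 63 other T helper genes by list in the 3 comparisons, 1 point a gene, with a red bar at the median of the list. Medians lie between -0.41 for Th17 genes in the left panel and 0.10 for Th2 genes in the same panel, and each list spreads to both sides of 0.

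The receptors and kinases upstream of the members gave values of both signs. Il12rb1, the constant chain of the interleukin 12 receptor, had levels of 3.71 and 3.43 in TSA-treated, 3.68 and 3.86 in diabetic, and 3.89 and 3.78 in non-diabetic mice. Il4ra, through which interleukin 4 activates Stat6, had levels of 5.36 and 5.23 in TSA-treated, 5.45 and 5.34 in diabetic, and 5.14 and 4.87 in non-diabetic mice, so that its non-diabetic arrays were the lowest where those of the brighter Stat6 probe set were the highest. The interferon gamma receptor chains Ifngr1 and Ifngr2 differed by -0.16 and 0.07 between TSA-treated and non-diabetic mice, with overlapping arrays. The kinases of the interleukin 12 receptor differed in opposite directions, Jak2 by 0.50 (limma, adjusted p = 0.318) and Tyk2 by -0.59 (limma, adjusted p = 0.225).

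Stat3 and Cxcr5 resembled the brighter Stat6 probe set, and not the dimmer one, in where their lowest array lay. Stat3, which Th17 differentiation requires, had levels of 8.14 and 7.46 in TSA-treated, 8.33 and 8.25 in diabetic, and 8.86 and 8.66 in non-diabetic mice. Its difference of TSA-treated from non-diabetic mice was -0.96, with an interval of -1.59 to -0.34 and an adjusted limma p of 0.200. Without replicate 1 of the TSA-treated pool this difference was -1.31. Cxcr5, the follicle-homing receptor of B cells and follicular helper T cells, had levels of 7.84 and 6.47 in TSA-treated, 8.23 and 8.35 in diabetic, and 8.26 and 8.21 in non-diabetic mice. Its difference of TSA-treated from non-diabetic mice was -1.08, with an adjusted limma p of 0.327, and without that array it was -1.76. Replicate 2 of the TSA-treated pool, where the B cell markers were lowest, was the lowest array for both. The upper quartile of all probe sets was also lowest on that array, at 5.75 against 6.02 to 6.10 on the others.

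The genes whose levels ran most like each member were found by Pearson correlation over the 6 arrays among 19229 probe sets, and are given as a description, since the arrays come from 3 pools and many probe sets reach a high value with so few points. Among them were Utp15 for Tbx21 (r = 0.998), Phf20 for Stat4 (0.996), Capn8 for Il12rb2 (0.997), Ap1s3 for Gata3 (0.995), Sh3bgrl3 for Stat6 (0.999) and Mettl9 for Bcl6 (0.998). For the cytokines they were Slc6a6 for Ifng (0.981), Rnd3 for Il4 (0.993) and Tnfrsf11a for Il17a (0.992). Stat6 and Bcl6 were each taken by their brighter probe set alone. The number of probe sets above 0.9 was 1595 for Stat6, the most of the 9 genes, and 29 for Ifng, the fewest.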

How the data were processed

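Affymetrix mouse genome arrays were hybridized in duplicate with 1 RNA pool from each of 3 groups. The authors quantile-normalized the arrays and summarized the probes by RMA (Robust Multi-array Average), and the deposited values are log2 levels. The deposited arrays did not share 1 distribution, since the upper quartile was 5.75 on replicate 2 of the TSA-treated pool and 6.02 to 6.10 on the others, so quantile normalization of the deposited values was an alternative. Per the study's methods they used an S-Plus package. The table holds 45101 probe sets, including 64 controls that were not tested. Of the 45037 others, 34945 name 1 gene, 932 several and 9160 none. No filter on level was applied.

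All 6 arrays were fitted in limma 3.58.1 (R 4.3.3) with 1 mean per group, with 3 residual and 2.94 prior degrees of freedom, and p-values were adjusted by Benjamini-Hochberg within a comparison. The members, gene lists and tests were chosen with earlier results of these data known. All members were named, other helper genes were named if called or from a short list set by name, and such a gene was given by its brightest probe set. For likeness, each member was taken by its brightest probe set. The 2 best correlated genes above the median probe set were found for it, and the first was named. Alternatives were leaving out each array, a replicate block, fits of 2 groups alone, limma variants, the local pooled error test and the methods' t-test, a filter, other scalings, another threshold and gene means. Array number and signal over background limit precision.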

Additional observations from a re-analysis of the deposited data

How the results depend on the processing

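Of 33 member differences, each recomputed under 15 or 16 alternatives, 20 kept sign and call, 11 changed sign in some setting and 2 changed call, both of the brighter Stat6 probe set. When 1 array was left out, the lone array of its pool was assumed to vary like the others. Member probe sets called then ran from 0 to 1 in both comparisons of TSA-treated mice. Other helper genes called, 0 with all arrays, ran from 0 to 7 for TSA-treated against non-diabetic mice, 0 to 1 for diabetic against non-diabetic and 0 to 4 for TSA-treated against diabetic mice, the highest of each without replicate 1 of the first-named pool, the 7 being Irf4, Notch1, Rora, Stat3, Cxcr5, Jak1 and Socs2, the 1 Il6ra and the 4 Irf4, Rora, Cxcr5 and Jak1. With 2 groups alone 2 were called in the first comparison (Il6ra and Tgfb1), and by the local pooled error test 4 (those, Irf4 and Ccr6) and, in the second, 2 (Il6ra and Ccr6), all lower and all named after their values were seen. Ranges without 1 array that crossed 0 were, for TSA-treated against non-diabetic mice, -1.19 to 0.025 (the dimmer Stat6 probe set) and -0.21 to 0.22 (Ifng). For diabetic against non-diabetic mice they were -0.033 to 0.30 (Tbx21), -0.17 to 0.053 (the dimmer Bcl6 probe set), -0.18 to 0.49 (Stat4), -0.14 to 0.29 (Ifng) and -0.19 to 0.16 (Il17a). For TSA-treated against diabetic mice they were -0.39 to 0.11 (Gata3), -0.65 to 0.021 (Stat4), -0.81 to 0.40 (the dimmer Stat6 probe set) and -0.14 to 0.0054 (Ifng). Quantile normalization again moved the calls over all probe sets between TSA-treated and non-diabetic mice to 60, against 31, and gave -0.053 for Ifng in the first comparison and 0.011 for Il17a in the second, median centring 0.040 for Il17a, and the mean over probe sets 0.032 for Bcl6 in the second. The cause was not tested. Over all probe sets the calls, 31, 40 and 12, ran over settings from 0 to 2045, 1 to 590 and 0 to 1047. By the methods' t-test 0 of 11 members were called in each comparison. With the replicate block, likewise, 0 of 11 members were called in each comparison, and 30, 33 and 0 of all probe sets. Deviations of same-numbered arrays correlated at -0.10, -0.04 and -0.34 between pools, so arrays of the same number did not deviate in the same direction. The source of the -0.34, between the diabetic and non-diabetic pools, was not tested.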
